A study of Mus musculus with 6 samples.

Results

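The miR-10, miR-99/100 and miR-125 families were measured in mouse blastocysts by 10 of the 750 miRNA assays on a pair of rodent TaqMan microRNA cards (card A and card B). The assays were chosen by name alone, as every assay whose number straight after miR- is exactly that of one of these families and whose name does not end in #. Card A carried mmu-miR-10a, mmu-miR-10b, mmu-miR-99a, mmu-miR-99b, mmu-miR-100, mmu-miR-125a-5p, mmu-miR-125a-3p, mmu-miR-125b-5p and mmu-miR-125b-3p, and card B carried a further mmu-miR-10b assay with another assay number. Another 6 assays with these numbers end in #, the maker's mark for the opposite arm of a hairpin, and are described only as such.

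The blastocysts came from superovulated Kunming mice 5 weeks old that were mated with fertile males. Fresh blastocysts (pools F1, F2 and F3) were the controls. Vitrified blastocysts (pools V1, V2 and V3) were held for 30 seconds in a pretreatment solution of ethylene glycol and DMSO, loaded for 25 seconds in the vitrification solution EDFS30 into an open-pulled straw, plunged into liquid nitrogen and thawed in sucrose, and both groups had been cultured in CZB medium. Each pool held 300 blastocysts, so that a value is an average over embryos and over inner cell mass and trophectoderm, and fewer cells of a type and less RNA per cell cannot be told apart.

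A microRNA (miRNA) is cut from a hairpin precursor, and bases 2 to 8 of the mature strand, the seed, pair with target mRNAs. The miR-10 genes lie inside the Hox clusters, whose proteins pattern the body axis, and the miR-10 and miR-99/100 families are sequence relatives. The miR-125 family is the vertebrate counterpart of lin-4, the founding miRNA of the nematode, and its genes are clustered with genes of the let-7 and miR-99/100 families. All 3 families are best known from differentiated tissues and blood cell precursors.

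The mature 5p strands are shown to compare the seeds of the families, and the 3p strands of miR-125a and miR-99b because their assays are used below. The sequences are the RefSeq entries of GRCm38.p6, all on the + strand, with the seed in capitals, and the other letters are the rest of the mature strand.
mmu-miR-10a-5p: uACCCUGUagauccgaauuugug
mmu-miR-10b-5p: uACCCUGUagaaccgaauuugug
mmu-miR-99a-5p: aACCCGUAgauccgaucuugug
mmu-miR-99b-5p: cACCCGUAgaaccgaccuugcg
mmu-miR-100-5p: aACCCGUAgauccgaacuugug
mmu-miR-125a-5p: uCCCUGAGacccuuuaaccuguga
mmu-miR-125b-5p: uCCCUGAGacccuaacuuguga
mmu-miR-125a-3p: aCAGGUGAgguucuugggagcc
mmu-miR-99b-3p: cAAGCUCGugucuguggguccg

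The 5p strands fall into 3 seed groups, 1 for each family. Counted from the 5p end, miR-10a and miR-10b differ only by U12A, and miR-99a and miR-100 only by U16A. With 1 gap base, miR-10a and miR-100 share 20 bases, although their seeds differ. The miR-125a-5p and miR-125b-5p strands begin with a shared run of 13 bases.

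The genes lie in 5 places of the genome (GRCm38.p6). Mir10a, with its mature strands at chr11:96317186-96317248, is inside Hoxb3, and Mir10b, at chr2:74726074-74726135, is inside the annotated spans of Hoxd3 and Hoxd4. Mir99b, Mirlet7e and Mir125a lie within 683 bases at chr17:17830194-17830876, inside Spaca6. Mir99a, Mirlet7c-1 and Mir125b-2 span 47400 bases at chr16:77598940-77646339, and Mir100, Mirlet7a-2 and Mir125b-1 span 50565 bases at chr9:41531437-41582001, neither cluster inside a protein-coding gene. The miR-125b-5p strand is the same from both of its hairpins, so that its assay cannot tell Mir125b-1 from Mir125b-2.

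The threshold cycle (Ct) is the PCR cycle at which a well crosses its fluorescence threshold, and a lower Ct means more template. Pools V1 and F1 stood apart from the others over the whole array. Of the 750 miRNA assays, V1 gave a Ct for 218 and F1 for 140, against 382 to 409 in the other 4 pools. Of 6 early embryo markers of the miR-290 to miR-295 cluster, 5 or 6 were determined in V2, V3, F2 and F3 and none in V1 and F1. Of 10 markers of blood, endothelium, stroma, muscle, nerve and liver, 9 or 10 were determined in V2, V3, F2 and F3, with miR-145, a smooth muscle and stromal miRNA, at a Ct of 18.52 to 21.30, earlier than every listed embryo marker. In V1 and F1, 8 and 7 of these 10 were determined. U6, the reference used below, stayed at a Ct of 16.52 to 17.82 in all 6 pools, but the other endogenous controls did not. The control snoRNA202 on card A was read at 25.90 in V1 and 27.47 in F1 and at 17.79 to 18.22 in the other 4 pools, and U87 on card A at 34.62 in V1 and 21.94 to 22.94 in those 4, with F1 undetermined. The part of this in the results below was not tested. Fold changes are therefore given with all 6 pools and, where they could be fitted, with the pools numbered 2 and 3.

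Of the 60 wells of the 10 assays, 41 (68.3%) had a Ct, against 43.6% of all miRNA wells. In the pools numbered 2 and 3 the shares were 77.5% and 53.4%. The number determined was 8 of 10 in V1, V2, F2 and F3 and 7 in V3, but 2 in F1. The only assays with a Ct in F1 were mmu-miR-125a-5p and mmu-miR-125b-5p. The 5 assays that were determined in every pool but F1 were mmu-miR-10a, both assays of mmu-miR-10b, mmu-miR-99b and mmu-miR-125a-3p. This pattern was seen in 73 of all 750 assays (9.7%).

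**Figure D1:**
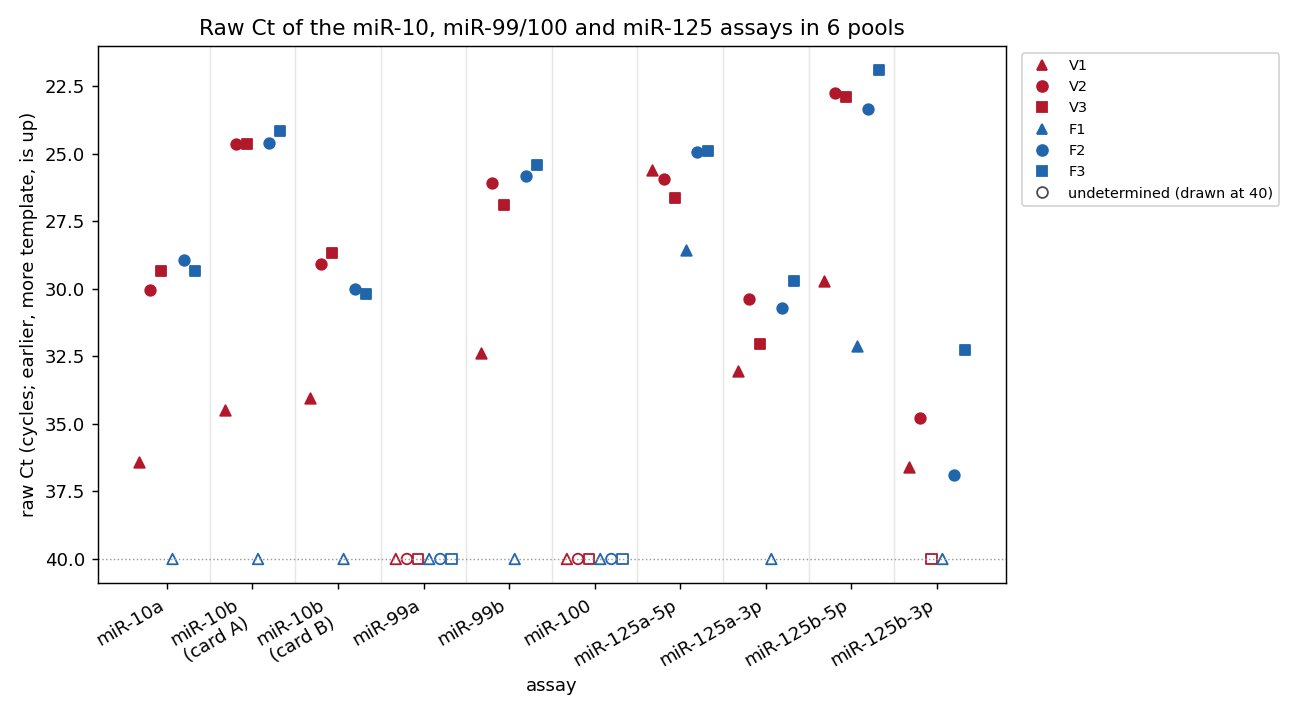
Raw Ct in cycles (vertical axis, reversed so that more template is higher) of each of the 10 assays in the vitrified (red) and fresh (blue) pools, with the pool number as the symbol and undetermined wells as open symbols at 40 cycles. The triangles of V1 and F1 lie below the other pools or at 40 for every determined assay except mmu-miR-125a-5p, where V1 is at 25.60, and mmu-miR-125b-3p, and mmu-miR-99a and mmu-miR-100 have no Ct in any pool.

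In the pools numbered 2 and 3, mmu-miR-125b-5p had the highest level of the 10 assays. The level was taken as ΔCt, the Ct minus the mean of the 4 U6 snRNA wells of the same card and pool, in which a lower value means more miRNA. Over these 4 pools the ΔCt of mmu-miR-125b-5p was 5.82 ± 0.75 (SD, n = 4), followed by mmu-miR-10b on card A at 7.61 ± 0.34, mmu-miR-125a-5p at 8.70 ± 0.73 and mmu-miR-99b at 9.16 ± 0.60. The values of mmu-miR-10b on card B (12.40 ± 0.81), mmu-miR-10a (12.50 ± 0.28) and mmu-miR-125a-3p (13.81 ± 1.02) came next. The latest was mmu-miR-125b-3p at 17.76 ± 2.51 over the 3 of these pools that determined it. Neighbours in this order that were closer than their SD were mmu-miR-125a-5p and mmu-miR-99b, and mmu-miR-10b on card B and mmu-miR-10a. Each assay has its own primers and efficiency, so the order is that of assay signals and not of molecule numbers.

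By rank among the determined assays of card A, mmu-miR-125b-5p was 18th of 229 in F3, 21st of 234 in V3, 27th of 212 in V2 and 34th of 239 in F2. In F1 it was 61st of 88, and in V1 44th of 140. The rank of mmu-miR-125a-5p ran from 63rd of 239 in F2 to 89th of 234 in V3 over the 4 other pools, and it was 10th of 140 in V1 and 24th of 88 in F1.

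For the comparison of vitrified with fresh blastocysts, the log2 fold change was the difference in mean −ΔCt, fitted for all 335 miRNA assays with at least 2 determined wells per group. None of these assays (0%) passed the adjusted threshold of 0.05 in limma, and a single assay (0.299%) had an unadjusted p-value under 0.05. Of the 10 assays of the families, 8 entered the model, and mmu-miR-99a and mmu-miR-100 could not. None of the 8 was called at either threshold, and their adjusted p-value was 0.998 in each case. The median log2 fold change of the 8 was −0.76, with 2 higher and 6 lower in vitrified blastocysts, against a median of −0.05 over all 335, of which 48.1% were higher. This split turned with the setting. With the global mean as the reference 5 were higher and 3 lower (median 0.23), with undetermined wells set to 40 it was 9 and 1 of 10 (median 1.18, with 78.1% of all assays higher), and without F1 it was 0 and 8 (median −1.52, with 30.1% of all assays higher). The 9 include mmu-miR-99a and mmu-miR-100, which had no Ct in any pool. Their value of 0.42 comes from the U6 reference alone. The 78.1% likewise include the assays without a Ct in any pool (34.7% of 750), which are higher through U6 alone. In none of the 8 were the ΔCt values of the groups without overlap, against 15.2% of the 335, of which 10.1% of the 335 were higher and 5.07% lower in vitrified blastocysts. In the pools numbered 2 and 3 alone, 7 entered the model, none had an unadjusted p-value under 0.05 in limma, against 4.91% of 326 assays, and the median was −0.29, against −0.02. In these pools the groups did not overlap for 2 of the 7, against 28.8% of the 326. All of these intervals were wide. The p-values rest on the spread between 2 or 3 determined pools per group, which may in part be technical, and limma also draws on the spread of the other assays. Only mmu-miR-125a-5p and mmu-miR-125b-5p had 3 pools in both groups.

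**Figure D2:**
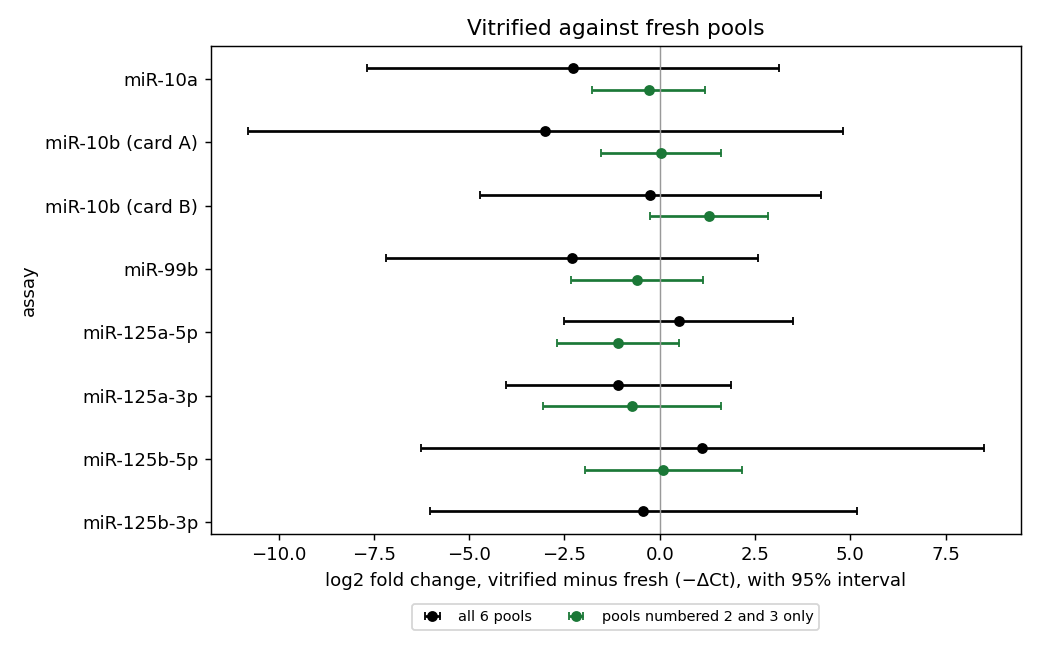
Log2 fold change of vitrified against fresh pools (horizontal axis, −ΔCt scale) with the 95% interval from limma for the 8 assays that could be tested, from all 6 pools (black) and from the pools numbered 2 and 3 (green). Every interval contains 0, and those from 6 pools are wider, up to −10.81 to 4.80 for mmu-miR-10b on card A.

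Outside V1 and F1, mmu-miR-10a and mmu-miR-10b on card A had the smallest SD of ΔCt among the assays of the families. V1 read mmu-miR-10b on card A at 34.49, V2 and V3 at 24.63 each, F2 at 24.62 and F3 at 24.16, and F1 was undetermined. V2, V3, F2 and F3 lay within 1 cycle of each other, and V1 was far later. The log2 fold change was −3.00 (standard error 3.09, adjusted p = 0.998 from limma) with V1, which has no determined F1 to stand against it, and 0.02 (standard error 0.61) in the pools numbered 2 and 3. The other assay of this miRNA, on card B, read 34.03 in V1, 29.08 in V2, 28.66 in V3, 30.01 in F2 and 30.19 in F3, again with F1 undetermined. On this assay V2 and V3 were earlier than F2 and F3. Its log2 fold change was −0.25 (standard error 1.77, adjusted p = 0.998 from limma) in all pools and 1.29 (standard error 0.60, 95% interval −0.26 to 2.84, adjusted p = 0.867 from limma) in the pools numbered 2 and 3, and 18.1% of the 326 assays likewise had groups without overlap and a higher level in vitrified blastocysts. The card B assay trailed that of card A by 3.84 to 5.82 cycles of ΔCt in V2, V3, F2 and F3, but by −0.30 in V1. Whether the response of the assays of this miRNA differed between the cards was not tested.

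For mmu-miR-10a, which differs from miR-10b by U12A, the Ct was 36.41 in V1, 30.03 in V2, 29.33 in V3, 28.93 in F2 and 29.33 in F3, and F1 was undetermined. V3 and F3 had the same Ct, and V1 was the latest. The log2 fold change was −2.27 (standard error 2.14, adjusted p = 0.998 from limma), and −0.29 (standard error 0.58) in the pools numbered 2 and 3. Within a pool, the Ct of mmu-miR-10b on card A minus that of mmu-miR-10a was −5.40 in V2, −4.71 in V3, −4.31 in F2 and −5.17 in F3, but −1.91 in V1. Of the other miRNAs encoded in Hox clusters, mmu-miR-196b had a Ct of 25.08 in V2, 25.66 in V3, 25.20 in F2 and 25.17 in F3, close to mmu-miR-10b, and 33.31 in V1 with F1 undetermined. Another pair of miR-196 assays, rno-miR-196c and hsa-miR-196a, was determined in all 6 pools, at 22.12 to 24.32 in V2, V3, F2 and F3 and at 30.36 to 35.21 in V1 and F1. The opposite arm assay mmu-miR-196a# had a Ct only in F2, at 34.90. Both mmu-miR-615 assays were undetermined in all 6 pools.

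The miR-99/100 family was represented by miR-99b alone, since mmu-miR-99a and mmu-miR-100 had no Ct in any of the 6 pools. This was also the case for 260 of all 750 assays (34.7%). No pool gave a positive reading of the assays of mmu-miR-99a and mmu-miR-100, so that a low level and an assay that did not work cannot be told apart. Their cluster partners were read early. In V2, V3, F2 and F3, mmu-let-7c had a Ct of 22.19 to 23.26 and mmu-miR-125b-5p of 21.92 to 23.36. The Ct of mmu-let-7a, which several hairpins encode, was 25.66 to 28.39. The opposite arm assay rno-miR-99a# was determined at 34.05 in V2, 35.58 in F2 and 31.66 in F3.

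The Ct of mmu-miR-99b was 32.39 in V1, 26.08 in V2, 26.89 in V3, 25.84 in F2 and 25.43 in F3, and F1 was undetermined. Each vitrified pool was later than both determined fresh pools in raw Ct, but not in ΔCt, where V2 (8.98) fell between F3 (8.47) and F2 (9.25). The log2 fold change was −2.30 (standard error 1.93, adjusted p = 0.998 from limma), and −0.59 (standard error 0.67) in the pools numbered 2 and 3.

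The miR-125 family included the only members measured in all 6 pools. V1 read mmu-miR-125b-5p at a Ct of 29.71, V2 at 22.74 and V3 at 22.89. F1 read it at 32.13, F2 at 23.36 and F3 at 21.92. The vitrified pools lay within the range of the fresh pools. The mean ΔCt of the vitrified pools was 7.82 ± 3.54 (SD, n = 3), and that of the fresh pools 8.93 ± 5.38 (SD, n = 3) (2-sided exact permutation test, p = 0.7, where the smallest p for 3 against 3 is 0.1). In limma this was a log2 fold change of 1.11 with a standard error of 3.05 (adjusted p = 0.998). In the pools numbered 2 and 3 the log2 fold change was 0.09 (standard error 0.80, 95% interval −1.96 to 2.15), and without F1 alone it was −1.95. Among these 4 pools F3 had the lowest ΔCt at 4.96 and F2 the highest at 6.77, with V2 at 5.63 and V3 at 5.92 between them. Of the 10 markers of other tissues, 9 were determined in these 4 pools, and 3 of them, miR-143, miR-145 and miR-133a, markers of smooth and striated muscle, stood in the same order. The other 6 did not. Among the blood markers, miR-142-3p and miR-451 had their lowest level in F3, miR-150 had its highest there (ΔCt 5.06), and miR-223 lay between 7.45 and 7.71. The endothelial marker miR-126-3p also had its highest level in F3 (ΔCt 3.09), and the nervous system marker miR-124 in V2 (8.76). The summed level of the list (log2, relative to U6), in which miR-145 had the largest share, was −0.80 in F3, −2.27 in V2, −2.66 in V3 and −3.11 in F2. None of the 5 embryo markers determined in these pools had this order. The part of such tissue in the level of mmu-miR-125b-5p was not tested.

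V1 crossed the threshold of mmu-miR-125a-5p at 25.60 cycles, V2 at 25.93 and V3 at 26.63. F1 crossed it at 28.55, F2 at 24.94 and F3 at 24.92. V1 was thus the earliest vitrified pool, and F1 the latest of all 6. The mean ΔCt of the vitrified pools was 8.76 ± 0.94 (SD, n = 3), and that of the fresh pools 9.26 ± 1.92 (SD, n = 3) (2-sided exact permutation test, p = 0.8). In limma this was a log2 fold change of 0.50 with a standard error of 1.24 (adjusted p = 0.998). In the pools numbered 2 and 3 the sign turned, to −1.09 on the log2 scale (standard error 0.62, 95% interval −2.69 to 0.51, adjusted p = 0.867 from limma). There V2 (ΔCt 8.83) and V3 (9.66) lay above F2 (8.35) and F3 (7.96), and 10.7% of the 326 assays likewise had groups without overlap and a lower level in vitrified blastocysts. Without F1 the log2 fold change was −0.60.

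For miR-125a and miR-125b, the 3p assays were read later than the 5p assays in every pool that determined both. The Ct of mmu-miR-125a-3p was 33.05 in V1, 30.37 in V2, 32.05 in V3, 30.72 in F2 and 29.71 in F3, and F1 was undetermined. It followed mmu-miR-125a-5p by 7.45 cycles in V1 and by 4.44 to 5.78 cycles in the other 4 pools. Its log2 fold change was −1.09 (standard error 1.17, adjusted p = 0.998 from limma), and −0.73 (standard error 0.91) in the pools numbered 2 and 3. The Ct of mmu-miR-125b-3p was 36.59 in V1, 34.79 in V2, 36.89 in F2 and 32.25 in F3, with V3 and F1 undetermined, and limma gave −0.43 with a standard error of 2.07 (adjusted p = 0.998) as its log2 fold change. It followed mmu-miR-125b-5p by 6.88 to 13.54 cycles. The 6 assays ending in # gave a Ct in 21 of 36 wells. For mmu-miR-125b# the Ct was 35.83 in V1, 35.48 in V2, 33.35 in F2 and 30.81 in F3. V3 and F1 were undetermined, and the name of this assay does not say which of the hairpins it reads. A rat-named assay, rno-miR-125b#, was read at 36.34 in V2, 36.32 in V3, 35.73 in F2 and 31.91 in F3. For mmu-miR-10b#, the Ct was 30.30 in V2, 31.12 in V3 and 33.39 in F2, and hsa-miR-10a# was determined only in V2, at 32.68.

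The opposite arm of miR-99b departed from this order in V1, and F1 read it without a Ct for mmu-miR-99b. For miR-99a, only the opposite arm assay rno-miR-99a# had a Ct, in V2, F2 and F3. For hsa-miR-99b#, the vitrified pools V1, V2 and V3 read 27.62, 33.17 and 32.21, and the fresh pools F1, F2 and F3 read 25.93, 31.69 and 29.58. V1 and F1 were thus the earliest pools, whereas mmu-miR-99b was latest in V1 and undetermined in F1. The ΔCt of hsa-miR-99b# minus that of mmu-miR-99b was 3.95 to 6.48 in V2, V3, F2 and F3 and −4.61 in V1. Of the 122 miRNA assays determined in all 6 pools, 7 had both V1 and F1 earlier than the other 4 pools, and 6 of these were on card B, as this one is. The log2 fold change of hsa-miR-99b# between vitrified and fresh pools was −1.63 (standard error 2.13, adjusted p = 0.998 from limma), and −1.99 (standard error 0.92, adjusted p = 0.867) in the pools numbered 2 and 3. It was −0.12 without F1 and −3.50 without V1.

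The members also differed in how far V1 and F1 departed from the other pools of their groups. Over the 80 card A assays determined in all pools, V1 trailed the mean Ct of V2 and V3 by a median of 4.64 cycles, and F1 trailed that of F2 and F3 by 6.38 cycles. In V1, mmu-miR-10b on card A was later by 9.86 cycles, more than any of these 80 assays, and mmu-miR-125b-5p by 6.90, mmu-miR-10a by 6.73 and mmu-miR-99b by 5.91. In contrast, mmu-miR-125a-3p was later by 1.84 cycles, and mmu-miR-125a-5p was earlier, at −0.68, with only 5 of the 80 assays below it. The 80 assays leave out every assay undetermined in F1, as mmu-miR-10b was. One of those left out, miR-451, had a larger delay than mmu-miR-10b, at a Ct of 33.09 in V1 against 22.68 in V2 and 21.91 in V3. In F1, mmu-miR-125b-5p was later by 9.49 cycles, with 70 of the 80 assays below it, and mmu-miR-125a-5p by 3.62, with 22 below it. The 5p strands of miR-125a and miR-125b, which share their seed, thus lay on opposite sides of the median in both pools. On card B, where the medians were 1.80 and 1.67 cycles over 42 assays, mmu-miR-10b was later by 5.16 cycles in V1, and hsa-miR-99b# was earlier, at −5.07 in V1 and −4.70 in F1.

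**Figure D3:**
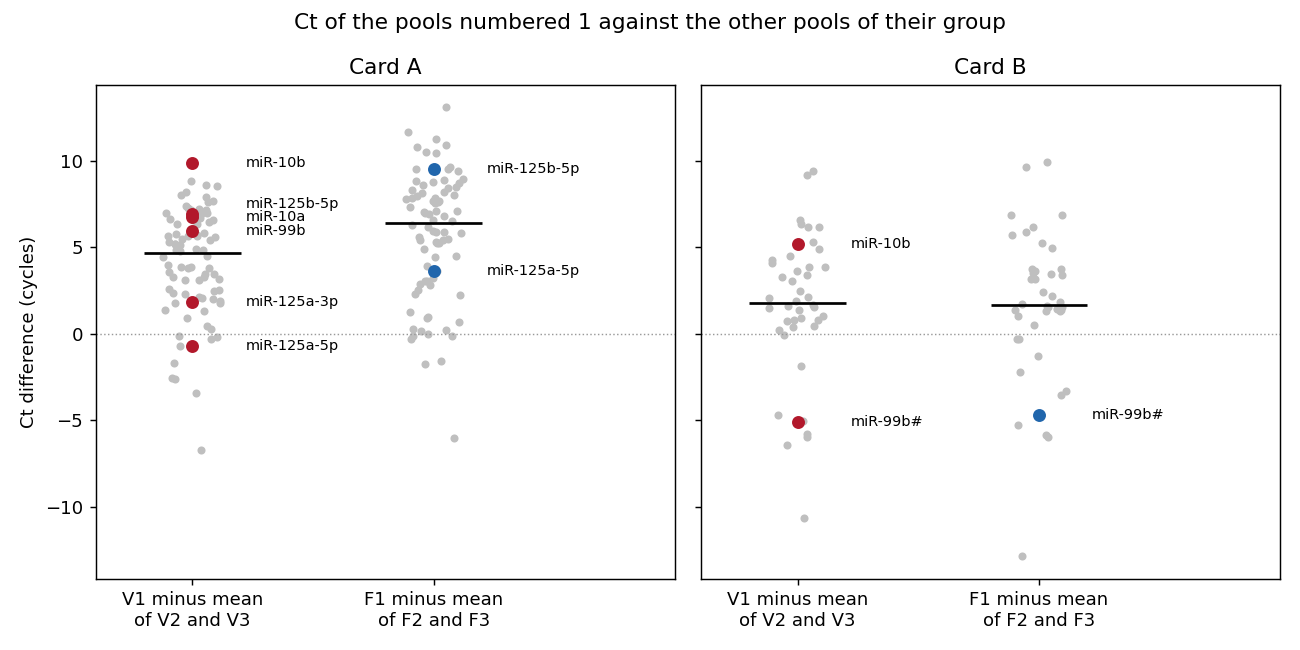
Ct of V1 minus the mean of V2 and V3 (red) and of F1 minus the mean of F2 and F3 (blue), in cycles, for the assays of the families and miR-99b#, over all assays determined in the 6 pools (grey points, with the median as a black line), on card A and card B. On card A mmu-miR-125a-5p, at −0.68, lies below 0 in V1. There mmu-miR-10b, at 9.86, lies above all grey points, which hold no assay that was undetermined in F1, as mmu-miR-10b was.

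Differences between assays of the same card and pool do not depend on the reference. Of the 12 pairs set for this comparison 8 could be tested, the other 4 holding mmu-miR-99a or mmu-miR-100, and none had an adjusted p-value under 0.05 (2-sided exact permutation tests, adjusted p = 1 for each of the 8 pairs). The tests of 3 against 3 and of 3 against 2 pools cannot give a p-value under 0.1. Paired by pool number, an exact sign-flip test called none either, with adjusted p-values of 0.667 to 1 where the smallest p is 0.25 for 3 numbers and 0.5 for 2. In the miR-99b cluster, mmu-miR-99b followed mmu-let-7e by 4.73, 3.85 and 4.58 cycles in the vitrified pools V1 to V3, and by 3.05 and 3.08 in the fresh pools F2 and F3. The difference was larger in each vitrified pool than in both fresh pools that determined mmu-miR-99b. Its mean was 4.38 ± 0.47 (SD, n = 3) against 3.06 ± 0.02 (SD, n = 2; 2-sided exact permutation test, p = 0.2). In F1 mmu-let-7e was read at 31.32 and mmu-miR-99b had no Ct, so F1 gives only a lower bound. With undetermined wells set to 40, so that F1 entered, the vitrified minus fresh difference was −0.55, against 1.32 without it. Among the pairs tested, no other had groups without overlap. For mmu-miR-125a-5p, the difference from mmu-let-7e was 3.70 and 4.32 in the vitrified pools V2 and V3 and 2.15 and 2.57 in the fresh pools F2 and F3, but it was −2.06 in V1 and −2.77 in F1. Within numbers 1, 2 and 3, the vitrified pool exceeded the fresh one by 0.71, 1.55 and 1.75 cycles (exact sign-flip test, p = 0.25, the smallest it can give). V1 and F1 thus had mmu-miR-125a-5p before mmu-let-7e, and the other 4 pools had it after. The Ct of mmu-let-7e itself was 22.23 to 22.79 in those 4 pools, 27.66 in V1 and 31.32 in F1, and its log2 fold change between vitrified and fresh pools was 1.84 (standard error 2.67, adjusted p = 0.998 from limma). That value was 0.56 in the pools numbered 2 and 3, −0.98 without F1 and −0.03 with the other endogenous controls as the reference. Against mmu-miR-99b, its neighbour in the cluster, the difference of mmu-miR-125a-5p lay between −0.90 and −0.15 in V2, V3, F2 and F3 and was −6.79 in V1.

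The assays of mmu-miR-125b-5p and mmu-let-7c, which have hairpins in the miR-99a cluster and elsewhere, stayed close in every pool. Their difference ranged from −0.42 in F3 to 1.46 in F1, and its mean over the vitrified pools was 0.59 ± 0.82 (SD, n = 3), against 0.38 ± 0.97 (SD, n = 3) over the fresh pools (2-sided exact permutation test, p = 0.8). Between the 5p strands of the miR-125 family, mmu-miR-125b-5p minus mmu-miR-125a-5p was −3.20 in V2, −3.74 in V3, −1.58 in F2 and −3.00 in F3, but 4.11 in V1 and 3.58 in F1 (2-sided exact permutation test, p = 0.7). The order of these assays thus turned with the pool number and not with the group. Between families, mmu-miR-99b minus mmu-miR-10b on card A was 1.22 to 2.26 in V2, V3, F2 and F3 and −2.10 in V1. The opposite arm assays of the let-7 partners, mmu-let-7a#, mmu-let-7c-1# and hsa-let-7e#, were undetermined in V1 and F1 and lay between 30.58 and 35.30 where determined.

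**Figure D4:**
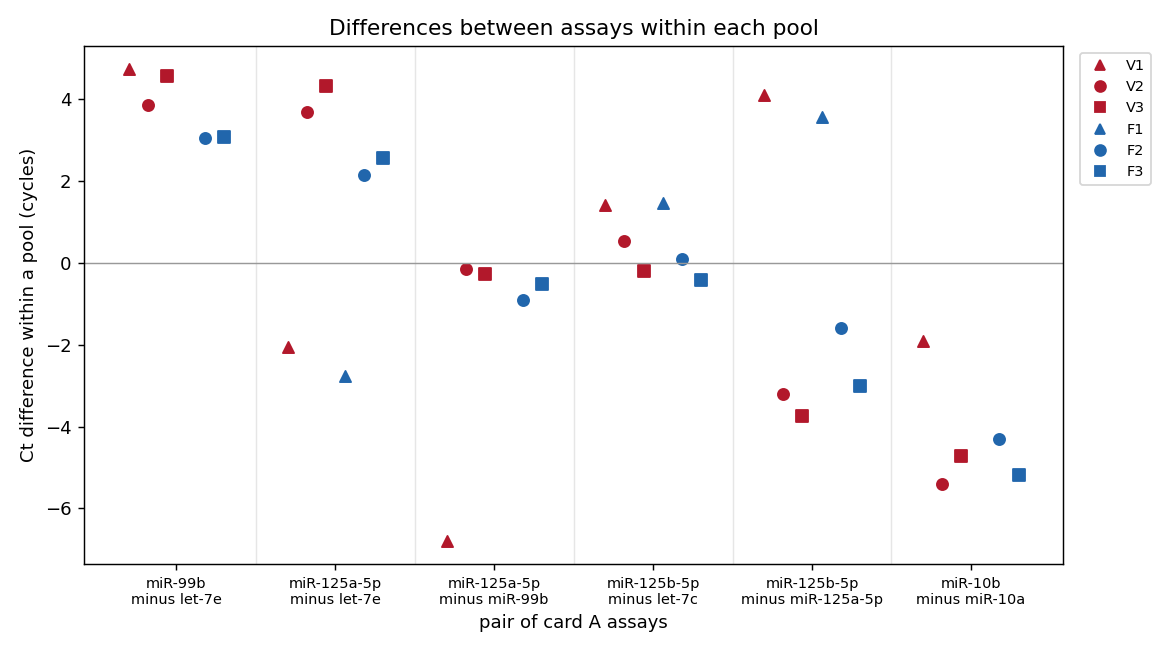
Ct of the first assay minus that of the second within each pool, in cycles, for 6 pairs of card A assays in the vitrified (red) and fresh (blue) pools, with the pool number as the symbol. For miR-99b minus let-7e the vitrified pools lie between 3.85 and 4.73 and the fresh pools F2 and F3 at 3.05 and 3.08. F1 is not drawn for this pair, as it had no Ct for miR-99b. For the pairs with miR-125a-5p the triangles of V1 and F1 lie apart from the other pools.

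The profiles most like those of the members determined in all pools were sought over the 121 other assays determined in all 6 pools, as the root mean square difference in ΔCt after each assay's own mean was removed. For mmu-miR-125a-5p they were mmu-miR-429 (0.59 cycles), mmu-miR-200c (0.62) and hsa-miR-200b (0.73), against a median of 1.99 over all 121. For mmu-miR-125b-5p they were mmu-miR-30c (0.35), mmu-miR-199a-3p (0.41) and mmu-miR-29c (0.52), against a median of 2.01. All assays of a pool share its RNA, and those of a card its U6 reference. The measure took in V1 and F1, and their part in the likeness was not tested. A further miR-200b assay, mmu-miR-200b on card A, was not among the nearest to mmu-miR-125a-5p. Its Ct exceeded the mean of V2 and V3 by 4.83 cycles in V1, and that of F2 and F3 by 8.42 in F1. The same differences were 0.79 and 1.81 cycles for hsa-miR-200b on card B and −0.68 and 3.62 for mmu-miR-125a-5p.

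Outside the named families, the seed of miR-125 is shared on the cards by miR-351, whose mature strand lies at chrX:53053315-53053338 on the − strand (GRCm38.p6). Its RefSeq strand is shown beside that of the family for the shared seed in capitals.
mmu-miR-351-5p: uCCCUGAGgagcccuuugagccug
The Ct of rno-miR-351 was 32.53 in V1, 31.96 in V2, 31.25 in V3, 29.14 in F2 and 28.21 in F3, with F1 undetermined. All vitrified pools were later than both fresh pools, and this assay was the 1 of 335 with an unadjusted p-value under 0.05 (log2 fold change −2.71, 95% interval −5.24 to −0.18, adjusted p = 0.998 from limma). In the pools numbered 2 and 3 its log2 fold change was −2.66 (standard error 0.71, adjusted p = 0.711 from limma). With undetermined wells set to 40, so that F1 entered, it was 0.96, and with a ceiling of 35 cycles −0.71. The other endogenous controls gave −1.03 and the global mean gave −1.29 when used as the reference. The assay mmu-miR-351 was determined at 33.94 in V1, 31.65 in F2 and 29.20 in F3 and undetermined in V2 and V3. Whether miR-351 and the members of the miR-125 family differed in their response was not tested.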

How the data were processed

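Total RNA (30 ng per pool) was reverse transcribed and pre-amplified by the authors, and Ct values were taken with RQ Manager (version not given in the sources used here). The deposited values are raw Ct values without normalization, with wells of no threshold crossing given as undetermined. A deposited table of the authors' fold changes was not used. Groups and pool numbers followed the sample labels.

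Wells undetermined or at 40 cycles or later were excluded, as in the study's methods, and the mean of the 4 U6 wells of the same card and pool was subtracted. The model of limma (3.58.1, R 4.3.3; lmFit, eBayes) took each assay with 2 or more values in both groups, and p-values were adjusted over these 335 assays by Benjamini-Hochberg. The step was tried on simulated data with independent noise and less spread than several family assays had. The simulation held no departures shared over assays as in V1 and F1, so it does not show how the model behaves with them. Single values were compared by 2-sided exact permutation tests over pools, run with numpy 2.4.6 and pandas 2.3.3 (Python 3.11.15), and figures were drawn with matplotlib 3.10.9. No pools of a group shared a Ct for any assay to the last digit deposited. A paired test of the assay pairs was added after these results were seen.

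Pools of the same number deviated together from their group means over 122 assays (correlations 0.80, 0.78 and 0.67 for numbers 1, 2 and 3), and the pairing comes from these numbers in the labels. Each group mean includes V1 or F1, so the departures of V1 and F1 also enter the correlations for numbers 2 and 3. Pools of different numbers were not compared in this way, so these correlations do not show that numbers 2 and 3 are true pairs. The members, the lists and the tests were chosen with earlier results of these data known. All assays of the families, their opposite arms, cluster partners, Hox miRNAs, same-seed assays and nearest profiles are named. Mature sequences and gene positions came from RefSeq (GRCm38.p6), matched by name for the 7 5p strands of the members, miR-125a-3p, miR-99b-3p and miR-351-5p. For human- and rat-named assays the mouse strand is shown.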

Additional observations from a re-analysis of the deposited data

How the results depend on the processing

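Under all 18 alternatives, limma called 0 miRNA assays and 0 assays of the families after adjustment. The limma adjusted p-values of the family assays lay between 0.724 and 0.998. The exact tests called 0 pairs under their alternatives, which was fixed in advance, as so few pools cannot give a p-value under 0.05. The number of all assays with an unadjusted p-value under 0.05, 1 with all pools, was 1 with the endogenous controls as the reference, 3 with the global mean, with a 35-cycle limit and without a reference, 4 when undetermined wells were set to 40 or a ceiling of 35 cycles was used, 6 in the unmoderated test with that ceiling, 0 for assays determined in all 6 pools, 2 with a variance trend, 4 with the replicate block, 24 with the block and the global mean, 16 in the pools numbered 2 and 3, and 0 to 10 with each pool left out, the highest without V1. Of 120 values of family assays under alternatives 85 kept their direction and 35 did not. The 85 include values that could not change, so the count is no measure of stability. The variance trend leaves every fold change as it was, and leaving out F1 does so for assays undetermined there. Settings for undetermined or late wells do so for mmu-miR-125a-5p and mmu-miR-125b-5p.

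With undetermined wells set to 40, the log2 fold change was 1.25 for mmu-miR-10a, 2.10 for mmu-miR-10b on card A, 2.39 for mmu-miR-99b, 2.07 for mmu-miR-125a-3p and 3.11 for mmu-miR-10b on card B, since F1 then stands at 40. With the ceiling of 35 cycles, moderated or not, these were 0.05, 0.43, 0.72, 0.41 and 1.44. With the other endogenous controls as the reference, which moves the median of all assays to −0.78, it was 0.60 for mmu-miR-125a-3p, −1.36 for mmu-miR-125a-5p, −0.75 for mmu-miR-125b-5p, 2.54 for mmu-miR-125b-3p and 1.57 for mmu-miR-10b on card B. With the global mean, which moves it to 0.12, it was 0.33 for mmu-miR-125a-3p, 1.36 for mmu-miR-125b-3p and 0.45 for mmu-miR-10b on card B. The cause was not tested. With the pool number as a block, it was 0.02 for mmu-miR-10b on card A and 1.29 for mmu-miR-10b on card B, and with the global mean as well 0.05 for mmu-miR-10a, 0.36 and 1.63. The block left no residual degree of freedom for mmu-miR-125b-3p. The pools numbered 2 and 3 gave 0.02 for mmu-miR-10b on card A, −1.09 for mmu-miR-125a-5p and 1.29 for mmu-miR-10b on card B. Setting undetermined wells to 40, the ceiling and raw Ct moved the median of all assays to 0.42, 0.31 and −0.35. With wells set to 40 and with the ceiling, an assay without a Ct in any pool has a value that comes from U6 alone. Leaving out 1 pool at a time, the log2 fold change ranged from −4.55 to 0.02 for mmu-miR-10b on card A and from −1.21 to 1.29 for mmu-miR-10b on card B, both highest without V1, and from −0.60 to 1.15 for mmu-miR-125a-5p and −1.95 to 3.15 for mmu-miR-125b-5p, both lowest without F1.

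Of 70 pair values 50 kept their direction, among them values that could not change, as those of pairs undetermined in F1 when F1 was left out. With undetermined wells set to 40, the vitrified minus fresh difference was −0.85 for mmu-miR-10b minus mmu-miR-10a, 1.89 for mmu-miR-125a-5p minus mmu-miR-99b, −0.55 for mmu-miR-99b minus mmu-let-7e and 0.99 for mmu-miR-125b-5p minus mmu-miR-10b. With a limit of 35 cycles, in the pools numbered 2 and 3 and with the pool number as a block it was −0.31 for mmu-miR-10b minus mmu-miR-10a, and in those pools and with the block 0.50 for mmu-miR-125a-5p minus mmu-miR-99b and 0.61 for mmu-miR-99b minus mmu-miR-10b. With each pool left out, the difference ranged from −0.31 to 1.43 for mmu-miR-10b minus mmu-miR-10a, −2.82 to 0.50 for mmu-miR-125a-5p minus mmu-miR-99b, −1.57 to 0.61 for mmu-miR-99b minus mmu-miR-10b, −0.21 to 0.75 for mmu-miR-125b-5p minus mmu-let-7c, −3.14 to 1.35 for mmu-miR-125b-5p minus mmu-miR-125a-5p and −0.38 to 3.36 for mmu-miR-125a-5p minus mmu-let-7e. Where a well has no Ct the level has only an upper bound, and the number of pools limits every comparison.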
